A study of Mus musculus with 10 samples.

Results

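The 10 genes described here belong to the BCL2 family, which sets whether a cell's mitochondria release the proteins that start apoptosis. They were taken by symbol (Bcl2, Bcl2l1, Mcl1, Bax, Bak1, Bcl2l11, Bbc3, Pmaip1, Bad and Bid), and all 10 were found among the 55492 gene symbols of the deposited count table. All 10 had enough reads to be tested. Their expression was measured by RNA-seq in B cells of 4 groups of mice. Naive WT (2 libraries) and naive KO (2 libraries) were splenic naive B cells on day 0. iGCB WT (3 libraries) and iGCB KO (3 libraries) were induced germinal center B cells on day 4 of the 40-LB culture, in which fibroblast feeders that present CD40 ligand and BAFF drive B cells into a germinal center-like state. KO cells came from mice with floxed Pcbp1 alleles and Mb1-Cre, a Cre recombinase expressed from the Cd79a locus in the B lineage. WT cells are labelled by that word alone, so whether the WT mice carried Cre is not given in the sources used here, nor are age, strain and sex. Pcbp1 encodes a protein that binds poly(C) stretches in RNA. Separate animals per library are not stated either, and p-values therefore reflect just the spread among these libraries, which may be technical.

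The family has 3 kinds of members. Pro-survival members hold the others in check: Bcl2 is known for keeping resting lymphocytes alive, Bcl2l1 encodes BCL-XL, which activated lymphocytes induce, and Mcl1 encodes a short-lived protein that B cells need. Bax and Bak1 are the effectors that form pores in the outer mitochondrial membrane. The BH3-only members sense stress and bind the pro-survival proteins or the effectors: Bcl2l11 encodes BIM, which removes autoreactive B cells, Bbc3 encodes PUMA and Pmaip1 encodes NOXA, both targets of p53, Bad responds to growth factor signalling, and Bid links death receptors to mitochondria.

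Libraries held 33400672 to 63576147 counts, and the targeted gene was checked first. In CPM (counts scaled to a common library size), Pcbp1 was at 83.9 to 327 in the 5 WT libraries and at 0.448 to 4.33 in the 5 KO libraries. Pcbp1 was thus lower in every KO library than in any WT library. Among B cell identity markers, Cd79b was at 514 to 1169.9 CPM, Ms4a1, which encodes CD20, at 378 to 1241 CPM, Pax5 at 467 to 2156 CPM and Cd22 at 707 to 1222 CPM over all libraries. Cr2, a marker of mature resting B cells, was at 702 to 1124 CPM in naive and 4.14 to 8.65 CPM in iGCB libraries. Xist and Y-linked transcripts marked replicate 1 of naive WT and of naive KO as female and the other 8 libraries as male. Sex and replicate number thus cannot be told apart in naive cells. Each naive group mixed the sexes while all iGCB libraries were male, so the comparisons of iGCB with naive cells were not balanced for sex. The part of sex in them was not tested. All 12 fibroblast markers together gave 31.2 to 75.2 CPM in iGCB libraries and 2.82 to 15.3 CPM in naive libraries. The 10 myeloid markers summed to 215 to 254 CPM in naive WT, 326 and 46.0 CPM in naive KO, 24.7 to 41.2 CPM in iGCB WT and 40.0 to 77.9 CPM in iGCB KO, and the 8 erythroid and platelet markers to 26.5 to 218 CPM in naive and 0.526 to 6.0 CPM in iGCB libraries. The part of these other cells in the results below was not tested. In bulk RNA, fewer cells of a type and less RNA per cell cannot be told apart.

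Sequences upstream of the start sites are shown for Bcl2 and Bcl2l1, the pro-survival genes called lower and higher between the stages in WT cells. Those of Bax, the effector called higher, are shown too. Bbc3 and Bad were also called higher, and their sequences are not shown. Each line gives the 250 bases before a RefSeq transcription start (GRCm38.p6), read 5′ to 3′ on the gene's strand. Capitals mark matches on either strand to GGGCGG (the GC box bound by SP1), to the NF-kappaB site or to the p53 half-site.
Bcl2, chr1:106714291-106714540, minus strand: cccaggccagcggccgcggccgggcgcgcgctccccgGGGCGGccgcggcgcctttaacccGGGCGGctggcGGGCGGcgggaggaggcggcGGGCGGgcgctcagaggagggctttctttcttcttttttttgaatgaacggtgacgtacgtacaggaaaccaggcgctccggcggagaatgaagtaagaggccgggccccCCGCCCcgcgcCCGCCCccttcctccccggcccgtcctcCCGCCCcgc
Bcl2l1, outer start, chr2:152831729-152831978, minus strand: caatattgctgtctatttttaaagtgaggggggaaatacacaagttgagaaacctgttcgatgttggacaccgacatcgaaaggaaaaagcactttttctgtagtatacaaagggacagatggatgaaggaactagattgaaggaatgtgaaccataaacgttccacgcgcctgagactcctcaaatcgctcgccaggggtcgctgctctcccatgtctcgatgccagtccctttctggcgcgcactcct
Bcl2l1, second start, chr2:152830718-152830967, minus strand: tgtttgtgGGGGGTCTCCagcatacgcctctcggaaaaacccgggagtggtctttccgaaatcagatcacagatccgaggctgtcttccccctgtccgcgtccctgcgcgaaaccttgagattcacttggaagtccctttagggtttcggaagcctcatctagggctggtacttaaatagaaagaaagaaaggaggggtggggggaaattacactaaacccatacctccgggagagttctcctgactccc
Bax, chr7:45466899-45467148, minus strand: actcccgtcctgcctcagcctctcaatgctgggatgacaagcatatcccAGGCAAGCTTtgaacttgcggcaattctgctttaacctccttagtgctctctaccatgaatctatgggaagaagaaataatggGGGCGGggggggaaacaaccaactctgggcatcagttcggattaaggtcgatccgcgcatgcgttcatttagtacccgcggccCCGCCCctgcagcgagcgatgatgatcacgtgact

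The Bcl2 window held 7 GC boxes and was 74.8% G and C. The second Bcl2l1 start had 1 match to the NF-kappaB site, at bases -242 to -233 from the start, and no GC box. Its outer start and its remaining RefSeq start (chr2:152828490-152828739, not shown) held none of the 3 motifs. The Bax window held 2 GC boxes and 1 p53 half-site at bases -201 to -192. Among 32851 RefSeq windows of the same length, 32.7% held a GC box, 7.25% an NF-kappaB site and 7.13% a p53 half-site, and the matches are given as descriptions. The counts per gene do not tell which start was used.

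Per kilobase of exon (union of the GENCODE M21 exons), Mcl1 was the most abundant of the 10 transcripts in every group, at 265 ± 132 CPM per kb in naive WT and 230.5 ± 40.5 in naive KO (mean ± SD, n = 2 each). The iGCB values were 178 ± 30.9 for WT and 211 ± 13.8 for KO (n = 3 each). Its libraries did not overlap those of the next gene in any group. In naive WT the order after Mcl1 was Bak1 (57.6 ± 29.4 CPM per kb), Pmaip1 (34.3 ± 28.2), Bcl2l11 (22.6 ± 11.5), Bcl2 (14.98 ± 2.27), Bid (10.6 ± 3.10), Bax (8.58 ± 0.523), Bbc3 (2.61 ± 1.94), Bcl2l1 (1.75 ± 0.358) and Bad (1.35 ± 0.752). Neighbours from Bak1 to Bcl2, Bid and Bax, and the last 3 overlapped in range, so their order is not resolved by 2 libraries. In iGCB WT the order was Bax (51.1 ± 9.47), Pmaip1 (43.3 ± 6.14), Bak1 (32.3 ± 8.17), Bcl2l11 (25.4 ± 6.71), Bcl2l1 (23.3 ± 6.07), Bbc3 (22.4 ± 7.43), Bid (15.6 ± 2.77), Bcl2 (8.47 ± 0.633) and Bad (5.79 ± 0.803). All neighbours from Bax to Bid overlapped in range, whereas Bcl2 lay below Bid and above Bad in every library. Bax and Bcl2l1 thus stood near the bottom in naive cells and in the middle or near the top in iGCB cells, while Bcl2 moved from the fifth place to the ninth.

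**Figure D1:**
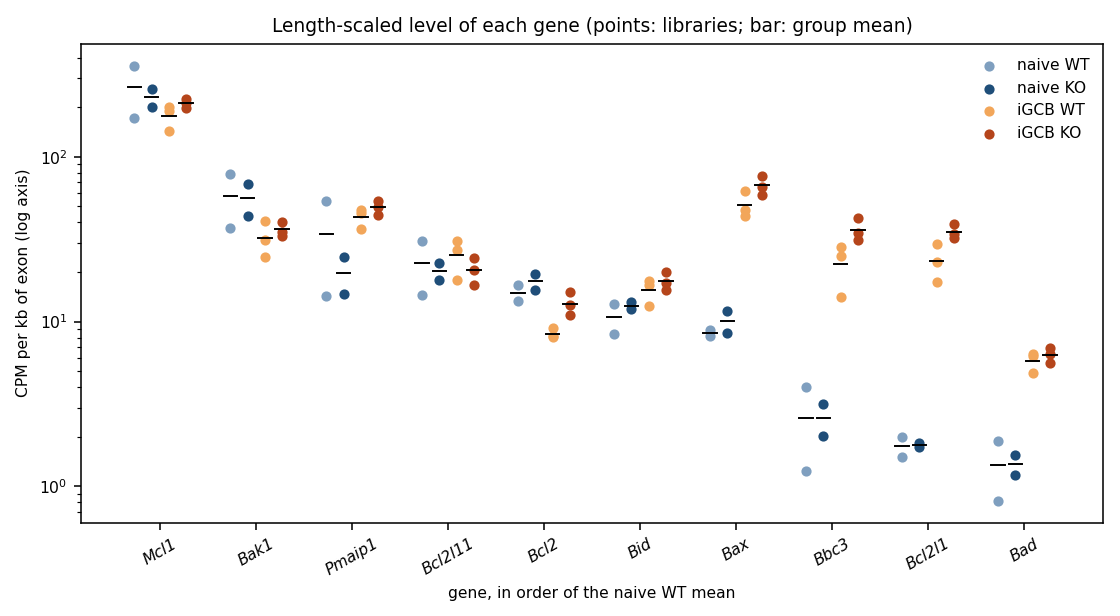
Level of each transcript in CPM per kilobase of exon on a log axis, with 1 point per library and a bar at the group mean, ordered by the naive WT mean. Mcl1 lies above all others in the 4 groups, and Bax, Bbc3, Bcl2l1 and Bad lie higher in all iGCB libraries than in any naive library.

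Of the summed per-kilobase level of the 3 pro-survival genes, Mcl1 made up 90.5% to 95.9% in the 4 naive libraries, 83.4% to 86.3% in iGCB WT and 80.9% to 82.1% in iGCB KO. Bcl2l1 made up 0.537% to 0.790% in naive libraries, 9.76% to 13.1% in iGCB WT and 12.4% to 14.9% in iGCB KO. The per-kilobase ratio of Bcl2l1 to Bcl2 was 0.0894 to 0.150 in naive cells and 2.15 to 3.67 in iGCB cells, so the more abundant of these 2 transcripts changed from Bcl2 to Bcl2l1. The ratio of Bax to Bak1 changed in the same way, from 0.114 to 0.223 in naive libraries to 1.17 to 2.19 in iGCB libraries. These shares scale with the annotated exon length, which may be longer than the transcripts these cells make.

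The comparison of iGCB with naive cells of WT mice asked how the family changes when B cells enter the germinal center-like state. Of the 10 members, 4 rose (Bcl2l1, Bbc3, Bax and Bad) and 2 fell (Bcl2 and Bak1), while 56.4% of the 21010 genes tested were called in this comparison (24.7% higher, 31.7% lower). The iGCB and naive libraries did not overlap for 5 members (Bcl2, Bcl2l1, Bax, Bbc3 and Bad), against 72.5% of all genes. The members' share of calls is thus close to that of all genes. Their median log2 fold change was 0.45, against -0.25 over all genes. Calls and adjusted p-values, here and below, are from edgeR's quasi-likelihood test, adjusted by Benjamini-Hochberg across the 21010 genes, with a threshold of 0.05.

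Bcl2l1 (ENSMUSG00000007659.18, mm10 chromosome 2, 152780668 to 152831728) was at 9.20 and 6.88 CPM in naive WT and at 105, 136 and 80.2 CPM in iGCB WT. Every iGCB WT library stood far above both naive ones. The log2 fold change was 3.73 (SE 0.26, adjusted p = 1.86e-06), or 13.3-fold. Beside it, the 12 fibroblast markers summed to 6.50 and 15.3 CPM in naive WT and 40.2 to 75.2 CPM in iGCB WT, and their part in the result was not tested. Bcl2 (ENSMUSG00000057329.7, chromosome 1, 106538178 to 106714274) was at 122 and 152 CPM in naive WT and at 84.2, 73.9 and 74.4 CPM in iGCB WT. The groups did not overlap, and Bcl2 fell by 0.82 on the log2 scale (SE 0.18, adjusted p = 0.00287). Mcl1 (ENSMUSG00000038612.16, chromosome 3, 95658788 to 95663176) was at 1223 and 588 CPM in naive WT and 691, 645 and 489 CPM in iGCB WT. Its iGCB libraries lay around the lower naive library, and the value of -0.57 (log2, SE 0.27, adjusted p = 0.0934) did not pass the threshold. It passed with RLE scaling (-0.65, adjusted p = 0.0484), DESeq2 (-0.65, 0.0308) and no low-count filter (-0.52, 0.0368). Without naive WT 1 (female), the value for Mcl1 was 0.05, and without naive WT 2 (male) it was -1.01. The direction thus rests on which naive library is kept, and the kept libraries differ in sex.

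Among the effectors, Bax (ENSMUSG00000003873.11, chromosome 7, 45461697 to 45466898) was at 14.1 and 12.9 CPM in naive WT and at 97.3, 75.5 and 68.7 CPM in iGCB WT, with no overlap. It rose by 2.57 on the log2 scale (SE 0.23, adjusted p = 8.62e-06), or 5.95-fold. Bak1 (ENSMUSG00000057789.14, chromosome 17, 27019810 to 27029009), which shares 614 exon bases with Ggnbp1 on the other strand, was at 189 and 88.5 CPM in naive WT and at 75.0, 98.7 and 59.7 CPM in iGCB WT. One iGCB library lay above the lower naive library. The log2 fold change was -0.83 (SE 0.31, adjusted p = 0.0397), and the call was lost without naive WT 1 (-0.19, adjusted p = 0.614), without iGCB WT 1 (-0.81, 0.0906) and without iGCB WT 3 (-0.67, 0.122). It was also lost without any 1 of the iGCB KO libraries (adjusted p 0.0535 to 0.0640). These are in neither group compared and enter through the filter, the scaling, the shared spread and the adjustment. The call was lost too in the fit of WT libraries alone (-0.81, adjusted p = 0.0705) and with the replicate block (-0.59, adjusted p = 0.193). That block paired naive and iGCB libraries by replicate number, a pairing the labels do not give.

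The BH3-only genes split. Bbc3 (ENSMUSG00000002083.13, chromosome 7, 16308393 to 16318205) was at 2.63 and 8.47 CPM in naive WT and at 60.0, 52.98 and 29.8 CPM in iGCB WT. All iGCB libraries were above both naive libraries, although these differed from each other more than 3-fold. The log2 fold change was 3.11 (SE 0.49, adjusted p = 0.000357), or 8.64-fold. Bad (ENSMUSG00000024959.14, chromosome 19, 6941861 to 6951899), at 83 to 658 reads per library the least counted member, was at 4.81 and 2.09 CPM in naive WT and at 12.5, 15.8 and 16.2 CPM in iGCB WT. It rose by 2.09 (SE 0.36, adjusted p = 0.000662). Bad shares 524 of its 2558 exon bases with Gpr137 on the other strand, and Gpr137 itself was at 9.83 and 5.45 CPM in naive WT and 14.3, 17.6 and 17.1 CPM in iGCB WT. Whether counting used the strand is not given, so reads of the shared bases cannot be assigned to one gene. Bid (ENSMUSG00000004446.12, chromosome 6, 120891930 to 120916853), at 45.4 and 29.9 CPM in naive WT and 44.1, 59.2 and 62.4 CPM in iGCB WT, had overlapping groups and a value of 0.55 (SE 0.22, adjusted p = 0.0545). Bid passed with library size alone (adjusted p = 0.0257), no low-count filter (0.0236) and a minimum count of 50 (0.0473). It also passed without naive WT 1 (0.89, 0.0123), iGCB WT 1 (0.69, 0.0301) or iGCB KO 2 (0.60, 0.0479). Bid shares 628 exon bases with Bcl2l13 on the other strand. Pmaip1 (ENSMUSG00000024521.8) was at 39.1 and 148 CPM in naive WT and 131, 125 and 99.3 CPM in iGCB WT, and its 3 iGCB libraries fell between the 2 naive ones (0.34, SE 0.42, adjusted p = 0.510). Without naive WT 2 it was called higher (1.59, adjusted p = 0.00137), and without naive WT 1 its value was -0.32 (adjusted p = 0.324). Bcl2l11 (ENSMUSG00000027381.16, chromosome 2, 128126038 to 128162547) was at 116 and 247 CPM in naive WT and 248, 219 and 144 CPM in iGCB WT, again with overlap (0.17, SE 0.32, adjusted p = 0.670).

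**Figure D2:**
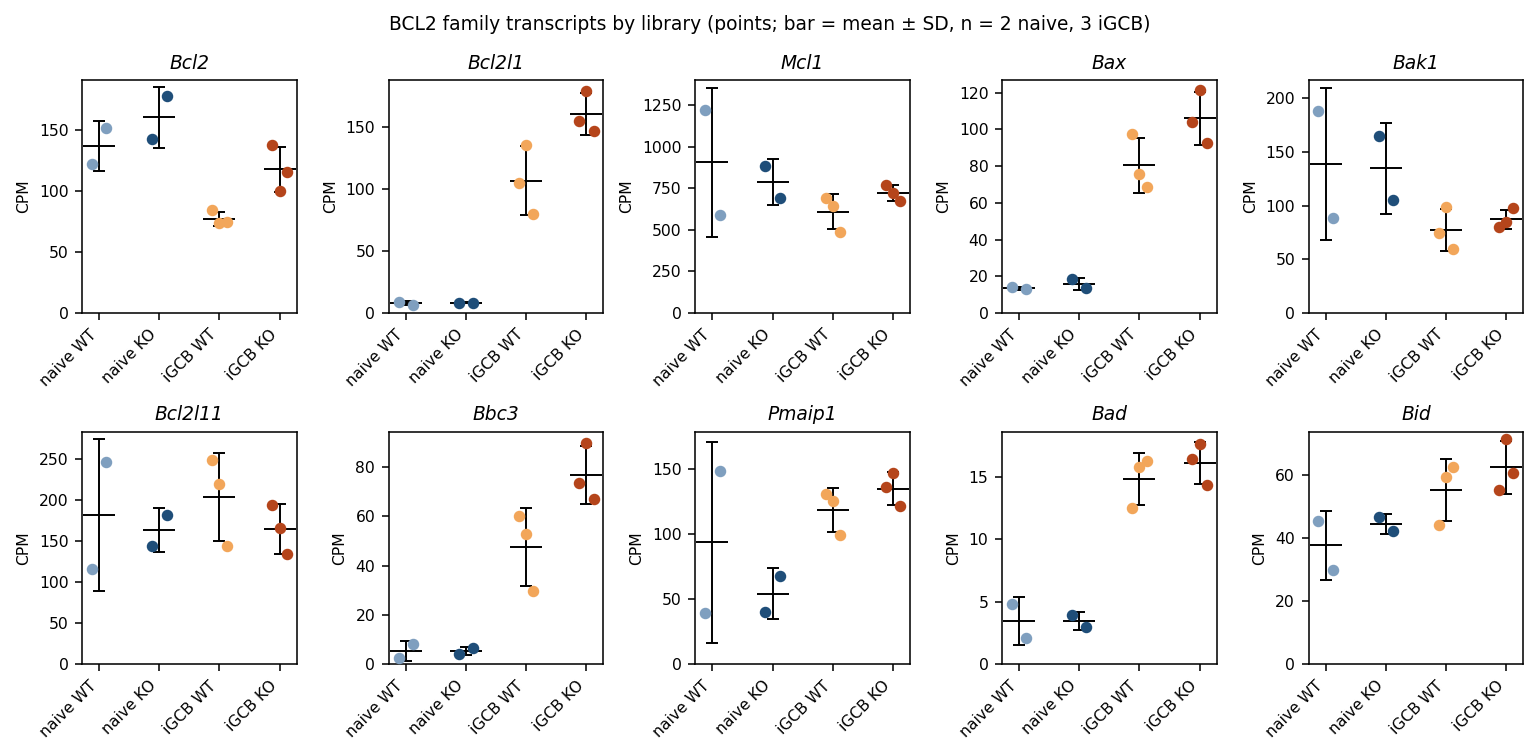
CPM of each of the 10 genes (linear axes from 0) in every library of the 4 groups, with the group mean and SD. Bcl2l1, Bax, Bbc3 and Bad are higher in all iGCB libraries of both genotypes, and the 2 naive WT libraries lie far apart for Mcl1, Bak1, Bcl2l11, Bbc3, Pmaip1 and Bad.

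In KO cells the same stage comparison called 5 members higher (Bcl2l1, Bbc3, Bax, Bad and Pmaip1) and 0 lower, where 56.2% of all genes were called (24.8% higher, 31.4% lower). It shares no library with the WT comparison, but both come from 1 fit with a common filter, scaling and estimate of spread. Bcl2l1 went from 8.44 and 7.98 CPM in naive KO to 155, 179 and 147 CPM in iGCB KO, or 19.5-fold higher (log2 fold change 4.29, SE 0.27, adjusted p = 1.12e-06). Bax went from 18.3 and 13.4 CPM to 104, 121 and 92.8 CPM (2.74, SE 0.23, adjusted p = 6.45e-06). Both genes showed no overlap between the stages. Bbc3 went from 4.28 and 6.72 CPM to 73.7, 89.8 and 66.9 CPM (3.81, SE 0.50, adjusted p = 0.000125). Bad went from 3.97 and 2.98 CPM to 16.4, 17.6 and 14.3 CPM (2.21, SE 0.36, adjusted p = 0.000507). The 4 genes called higher in WT cells were thus also called in KO cells.

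Pmaip1 was at 40.3 and 67.9 CPM in naive KO and at 136, 147 and 121 CPM in iGCB KO, and it rose by 1.32 on the log2 scale (SE 0.44, adjusted p = 0.0251). This call was lost without naive KO 1 (1.003, adjusted p = 0.142), iGCB KO 1 (1.31, adjusted p = 0.0514) or iGCB KO 2 (1.27, adjusted p = 0.0582). Bcl2 was at 143 and 178 CPM in naive KO and at 138, 100.4 and 116 CPM in iGCB KO. All iGCB libraries were below both naive ones, yet the value of -0.45 (SE 0.18, adjusted p = 0.0541) missed the threshold. Bak1 (165 and 105 against 79.9, 84.4 and 97.6 CPM) had -0.63 (SE 0.31, adjusted p = 0.105), and Bid (46.7 and 42.2 against 55.1, 71.4 and 60.5 CPM) had 0.49 (SE 0.22, adjusted p = 0.0825). Mcl1 (886 and 689.9 against 767, 724 and 673 CPM) had -0.13 (SE 0.28, adjusted p = 0.709), and Bcl2l11 (145 and 182 against 194, 166 and 134 CPM) had 0.01 (SE 0.31, adjusted p = 0.98). For 8 of the 10 members the naive KO and iGCB KO libraries did not overlap, against 75.5% of all genes. The fit of KO libraries alone called 8 members, adding Bid higher and Bcl2 and Bak1 lower. In that fit, 62.2% of all genes were called.

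The comparison of KO with WT in naive cells asked whether loss of Pcbp1 changes the family in resting B cells. None of the 10 members was called by edgeR's quasi-likelihood test, where 0.0476% of all genes were, and 0 had an unadjusted p under 0.05, against 5.55% of all genes. The same test did not call the deleted gene Pcbp1 itself (log2 difference -5.59, SE 0.82, adjusted p = 0.0561). The lack of calls therefore does not show that the members were unchanged. DESeq2 and the other alternatives also called 0 members. In the main fit, adjusted p was 1 for each. KO and WT libraries overlapped for all 10, while 24.2% of all genes did not overlap. For Bcl2l1 the log2 difference was 0.03 with a 95% confidence interval of -0.52 to 0.57, and for Bcl2 it was 0.23 (-0.21 to 0.67). Pmaip1 had the lowest value, -0.79, with an interval of -1.81 to 0.23. For Bbc3 the interval was -1.05 to 1.04. Taken separately for the female and for the male libraries, log2 KO-to-WT ratios were 0.22 and 0.23 for Bcl2, 0.04 and -1.13 for Pmaip1, 0.69 and -0.33 for Bbc3, -0.47 and 0.23 for Mcl1 and 0.31 and -0.44 for Bcl2l11. The sign was the same in both sexes for Bcl2, Bax (0.38 and 0.05) and Bid (0.04 and 0.50) and opposite for the other 7.

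The 2 naive libraries of a genotype differed from each other in the same direction in WT and KO for all 10 members, as did 70.5% of all genes tested. Replicate 1 (female) minus replicate 2 (male) was -1.92 and -0.75 on the log2 scale for Pmaip1 in WT and KO, -1.67 and -0.64 for Bbc3, -1.09 and -0.33 for Bcl2l11 and -0.31 and -0.32 for Bcl2. It was 1.06 and 0.36 for Mcl1, 1.09 and 0.65 for Bak1 and 1.18 and 0.41 for Bad. Replicate 2 thus held more of Bcl2 and of the BH3-only transcripts Pmaip1, Bbc3 and Bcl2l11, and replicate 1 more Mcl1, Bak1 and Bad. Sex, handling and sequencing depth, which was 63576147 and 58983878 counts for replicate 1 and 39625752 and 41316698 for replicate 2, cannot be told apart here.

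The comparison of KO with WT in iGCB cells asked the same of cultured cells. None of the 10 members passed the threshold in edgeR's test, where 1.27% of all genes did, while 2 had an unadjusted p under 0.05 (9.76% of all genes). Of the 10, 9 had a value above 0, against 47.5% of all genes, with a median of 0.22 against 0.00 over all genes. Several of these values were near 0 when 1 library was left out: without iGCB WT 3, Bak1 was at 0.00697, Pmaip1 at 0.0743 and Mcl1 at 0.11, and without iGCB WT 1, Bad was at 0.00878 and Bid at 0.0346. Marker levels in these groups were as follows. Ms4a1 was at 378 to 567 CPM in WT and 662 to 775 CPM in KO, Cd79b at 596 to 728 and 795 to 1057 CPM, with no overlap, while the myeloid sums given above overlapped. Their part in the result was not tested. The KO and WT libraries did not overlap for 3 members (Bcl2, Bcl2l1 and Bbc3), all higher in KO, while 20.5% of all genes did not overlap and 10.2% were higher. These 3 include a BH3-only gene beside the pro-survival pair.

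Bcl2 was at 84.2, 73.9 and 74.4 CPM in iGCB WT and 138, 100.4 and 116 CPM in iGCB KO. Each KO library was above each WT library, with a log2 difference of 0.61 (SE 0.16, interval 0.25 to 0.96, adjusted p = 0.139). Bcl2 passed the threshold in the fit of the 6 iGCB libraries alone (0.61, adjusted p = 0.0256), with DESeq2 (0.60, adjusted p = 0.0377) and with the replicate block (0.60, adjusted p = 0.0300), and no other member did in these fits. They called more genes in general: 5.61%, 3.71% and 2.8% of all genes in that order, against 1.27% in the main fit. Bcl2l1 was at 105, 136 and 80.2 CPM in WT and 155, 179 and 147 CPM in KO (0.59, SE 0.20, interval 0.15 to 1.02, adjusted p = 0.283). Bbc3, which encodes a protein that opposes both, was at 60.0, 52.98 and 29.8 CPM in WT and 73.7, 89.8 and 66.9 CPM in KO (0.69, SE 0.38, interval -0.14 to 1.52, adjusted p = 0.622). iGCB WT 3 had the lowest value of the 6 libraries for Bcl2l1, Mcl1, Bax, Bak1, Bbc3 and Pmaip1. Bax had a log2 difference of 0.40 (SE 0.18, adjusted p = 0.517), with 1 WT library within the range of KO. Bcl2l11 was the member with a value below 0, at -0.31 (SE 0.28, adjusted p = 0.823), from 248, 219 and 144 CPM in WT and 194, 166 and 134 CPM in KO. Mcl1 (0.25), Bak1 (0.17), Pmaip1 (0.19), Bad (0.12) and Bid (0.17) had overlapping groups and adjusted p-values of 0.845 to 0.996.

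**Figure D3:**
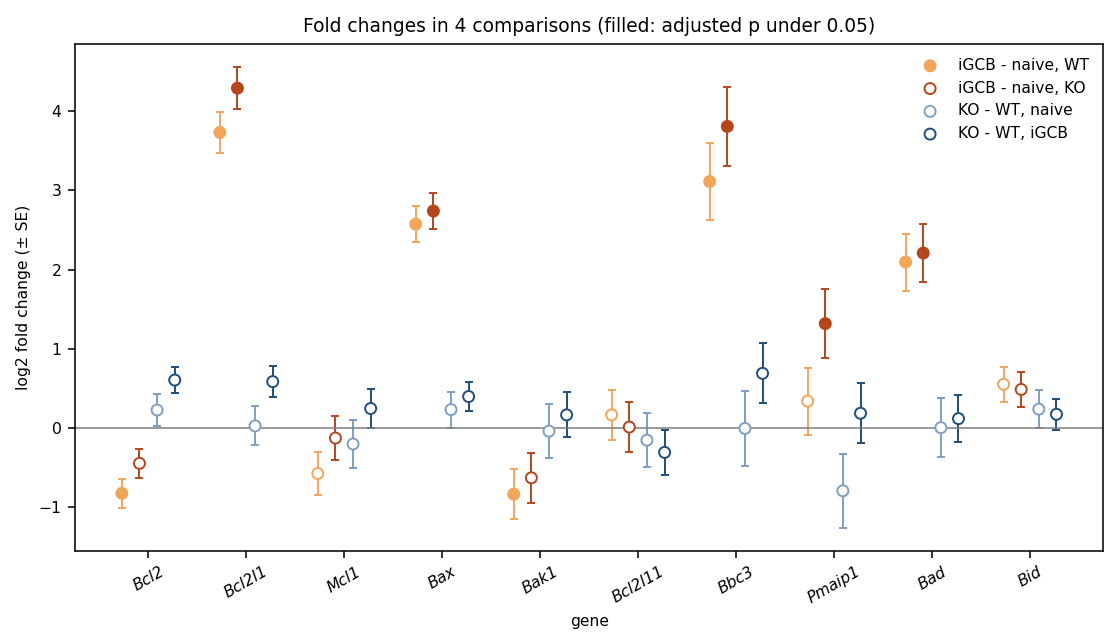
Log2 fold change with its SE for each gene in 4 comparisons, filled where the adjusted p is under 0.05. Filled points occur only for iGCB against naive: 6 genes in WT and 5 in KO cells.

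Whether the KO effect differed between the stages was tested as the difference of the 2 effects. None of the 10 members passed (0.0333% of all genes did), 0 had an unadjusted p under 0.05 against 6.06% of all genes, and DESeq2 called 0 as well. The largest differences were 0.98 for Pmaip1 (SE 0.60, interval -0.33 to 2.29, adjusted p = 0.918), 0.69 for Bbc3 (SE 0.61, adjusted p = 0.974) and 0.56 for Bcl2l1 (SE 0.31, interval -0.13 to 1.25, adjusted p = 0.902). The call of Pmaip1 in KO but not WT cells between the stages is therefore not shown to differ between genotypes.

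Of 51 tested genes around the family, 32 (62.7%) were called between the stages in WT and 33 (64.7%) in KO cells, near the 56.4% and 56.2% of all genes. Of 15 further BCL2 relatives, 12 were tested and Bcl2l10, Bok and Hrk were not, with at most 14 reads in any library. In WT cells 5 of the 12 rose and 0 fell, with a median log2 fold change of 0.97 against -0.25 over all genes. They include Bnip3, a BH3-like protein of mitochondrial clearance (5.49, SE 0.27, adjusted p = 2.91e-07), and the pro-survival genes Bcl2a1b (3.73, SE 0.82), Bcl2a1d (3.18, SE 0.27) and Bcl2l2, which encodes BCL-W (2.92, SE 0.25). Bcl2a1 genes are near-identical copies, and reads may be split between them, so their values are uncertain. In KO cells 6 of the 12 rose, with Bnip3 at 5.59 (SE 0.27), Bcl2a1b at 3.52 (SE 0.79), Bcl2a1d at 2.95 (SE 0.26) and Bnip3l at 2.80 (SE 0.26). Of the 7 apoptosome and caspase genes, 4 rose in WT and 5 in KO cells and 0 fell, among them in WT Casp6, an effector caspase (2.67, SE 0.38), Cycs, which encodes cytochrome c (2.15, SE 0.37), and Apaf1, the scaffold of the apoptosome (0.89, SE 0.20). Of 9 genes of proteins released from mitochondria or of the IAP family, 5 rose and 2 fell in each genotype. In WT, Endog (3.90, SE 0.80), Birc5, which also acts in mitosis (3.84, SE 0.45), and Htra2 (2.70, SE 0.24) rose. Endog was scarce, at 0.101 and 0.303 CPM in naive WT and 1.92 to 3.51 CPM in iGCB WT, so its fold change is uncertain. Its value in KO cells was 1.82 (SE 0.70). In WT, Birc2, an E3 ligase of CD40 signalling, rose by 2.24 (SE 0.18). Diablo, whose product binds IAP proteins, fell by 1.61 (SE 0.35), and Birc3 by 0.84 (SE 0.19), both outside the naming rule and named for their direction.

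Among 9 death receptor genes, 4 rose and 3 fell in each genotype. Fas, the death receptor that germinal center B cells display, went from 5.77 ± 2.39 to 145 ± 6.57 CPM in WT (4.65, SE 0.28) and from 5.59 ± 0.0772 to 158 ± 21.996 CPM in KO (4.82, SE 0.28). Tnfrsf10b, the mouse TRAIL receptor, rose in WT (2.62, SE 0.36), and Tnfrsf1a (-3.60, SE 0.98) and Cflar, an inhibitor of caspase-8 (1.30, SE 0.18), completed the 4 largest changes among called genes. Of 14 regulators and partners of the members, 3 rose and 6 fell in WT, and 4 rose and 4 fell in KO cells. In WT, Dynll2, a dynein light chain that binds BMF (2.90, SE 0.30), and Fbxw7, a ubiquitin ligase receptor for MCL1 (2.36, SE 0.16), rose, while Ddit3, the stress factor CHOP (-1.93, SE 0.30), and Vdac1 (1.68, SE 0.22) were the next largest changes among called genes. Between KO and WT, 0 of these 51 genes passed the threshold in edgeR's test at either stage. Of all genes, 0.0476% passed in naive and 1.27% in iGCB cells, so this count is near the share of all genes. Chosen after their values were seen, Bcl2l2 was at 50.1 ± 10.5 CPM in iGCB WT and 30.5 ± 3.61 CPM in iGCB KO (n = 3 each; -0.72, SE 0.20, adjusted p = 0.154), and Tnfrsf13c, the BAFF receptor, at 130.0 ± 36.3 and 251 ± 20.8 CPM (0.95, SE 0.23, adjusted p = 0.0851).

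**Figure D4:**
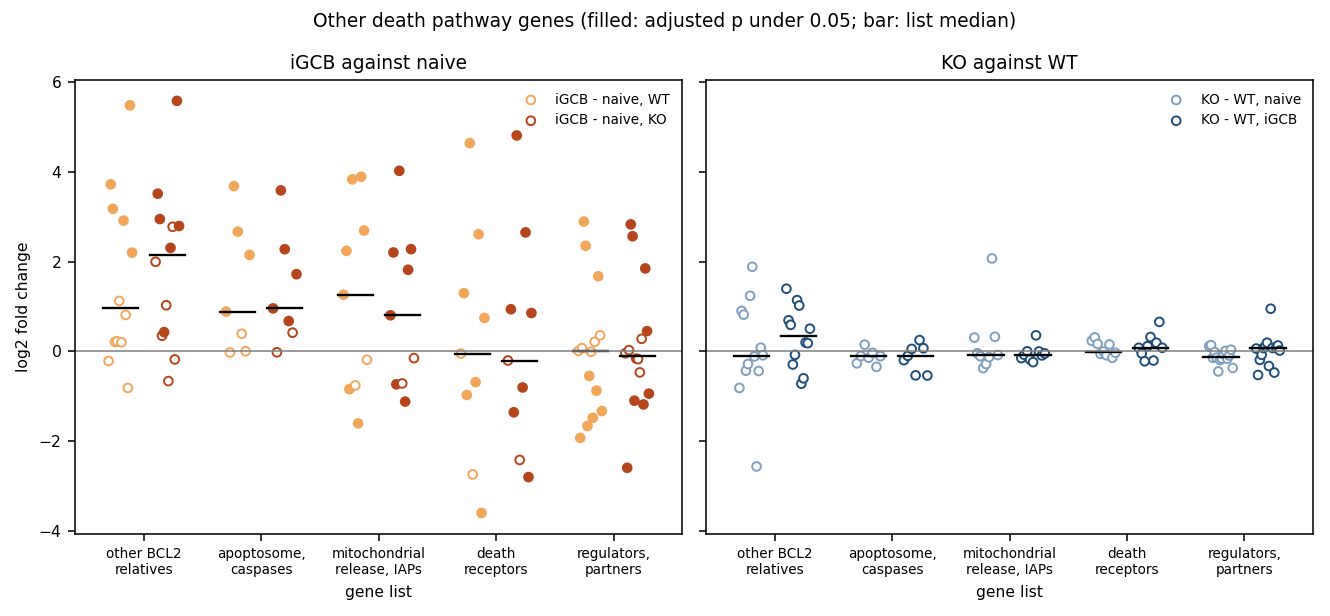
Log2 fold change of the other death pathway genes by list, for iGCB against naive (left) and KO against WT (right), filled where the adjusted p is under 0.05 and with a bar at the list median. Filled points are seen on the left only, above 0 for the BCL2 relatives and caspases and on both sides for the other lists.

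Across the 10 libraries, log2 CPM of Bcl2l1, Bax, Bbc3 and Bad had Pearson correlations of 0.86 to 0.99 with each other. All these libraries share the stage difference, and no p is given. Mcl1 and Bak1 correlated at 0.86, and Pmaip1 at -0.83 with Bak1. Among 9582 genes of mean log2 CPM 2 or more, those most like each member were Shank1 (0.97) and Stap1 (0.96) for Bcl2, Aldoc (0.999) and Stat5a (0.998) for Bcl2l1, and Ubap1 (0.96) and Sp3 (0.92) for Mcl1. They were Pabpn1 (0.995) and Pmm1 (0.995) for Bax, and Midn (0.98) and Cxcr5 (0.97) for Bak1. For the BH3-only genes they were Donson and Acbd5 (both 0.89) for Bcl2l11, Ankrd37 and Paqr8 (both 0.99) for Bbc3, Bri3 and Usp2 (both 0.96) for Pmaip1, Mrpl10 (0.998) and Atp5c1 (0.997) for Bad, and Slc17a9 (0.98) and Cog7 (0.97) for Bid. Shank1, for example, was at a mean of 35.7 CPM in naive WT, 57.4 in naive KO, 5.09 in iGCB WT and 17.5 in iGCB KO, the same order of groups as Bcl2.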

How the data were processed

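RNA-seq was analysed in 10 libraries of mouse B cells. The deposited values were raw read counts by symbol. Per the submitters' processing notes, the authors used featureCounts and mm10. Aligner, annotation, versions and strand setting: not given in the sources used here. Among counts of 1 to 20, odd values made up 17.7% to 26.9%, so counts may not be independent fragments. Positions and exon lengths came from GENCODE M21 (96% of symbols matched) and promoters from RefSeq, with 9 of the 10 members matched.

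Genes were kept with filterByExpr (minimum count 10; 21010 kept), scaled by TMM and fitted in 1 quasi-likelihood model with a mean per group and 6 residual degrees of freedom (edgeR 4.0.16, R 4.3.3). Tests were two-sided. P-values were adjusted over the whole table by Benjamini-Hochberg, with a threshold of 0.05. SE is the fold change over the root of F, and 95% intervals use the t distribution with the model's degrees of freedom. Levels are CPM on TMM-scaled totals, and log2 CPM used a prior count of 2. The pipeline was tested on simulated data. Alternatives were RLE scaling, library size alone, DESeq2 1.42.0, other low-count filters (none, or a minimum count of 50), fits of the compared groups, a replicate block and leaving out each library.

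The members, gene lists and tests were chosen with earlier results of these data known. The naming rule took all members. It took, from each other list up to 4 called genes with the largest fold change per comparison, and for each member the 2 genes with the highest correlation. Some genes that the lists hold are not reported here. Whether replicate numbers pair libraries was checked by the correlation of deviations from group means over 10103 genes. Between KO and WT it was 0.55 in naive cells, and 0.46, -0.12 and 0.04 in iGCB cells. Between naive and iGCB libraries of the same number it was -0.13 and 0.14 in WT and -0.06 and -0.12 in KO cells. Replicate 1 was female in naive and male in iGCB cells, so the number does not mark the same animal across the stages. For iGCB against naive, the replicate block nevertheless paired libraries by that number, so it is a weak check of those calls. The main model used no pairing at either stage, and pairing entered only the replicate block. The gap shared by naive libraries of the same number thus stayed in the main model's spread.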

Additional observations from a re-analysis of the deposited data

How the results depend on the processing

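Calls of Bcl2l1, Bax, Bbc3 and Bad between the stages held under every alternative run in both genotypes. The count of members called for iGCB against naive in KO cells was 5, rose to 8 in the fit of KO libraries alone, and ranged from 4 to 8 over fits without 1 library, while the share of all genes called was 56.2%, 62.2% and 39.0% to 55.6%. In WT cells it was 6, and 5 in the fit of WT libraries alone and with the replicate block. It was 7 with RLE, library size alone, DESeq2 and a minimum count of 50, and 8 without a filter. Changes in WT cells without 1 library are given gene by gene above. Of all genes, the WT stage comparison called 56.4% in the main fit, 56.3% in WT libraries alone and 37.7% with the block. It called 56.9% with RLE, 56.5% with library size alone, 59% with DESeq2, 66.5% with a minimum count of 50 and 37.8% without a filter. Without 1 iGCB library it called 48.4% to 54.9%. For KO against WT in iGCB cells, 1 member, Bcl2, was called in some fits, against 0 otherwise (1.27% of all genes in the main fit). Those fits were DESeq2 (3.71% of all genes), iGCB libraries alone (5.61%) and the replicate block (2.8%, log2 fold change 0.60). The block changed 1 other call, that of Bak1 in WT cells, where it paired naive and iGCB libraries by number although replicate 1 differs in sex. Scaling by library size alone shifted the median of all genes from -0.05 to 0.07 for KO against WT in naive cells and from 0.04 to -0.10 for the difference of KO effects, and from -0.26 to -0.36 for iGCB against naive in KO cells. Over all genes, KO against WT called 3 higher and 7 lower in naive cells (105 and 62 with DESeq2, 126 and 116 without a low-count filter, 15 and 16 with the block, 0 and 0 in naive libraries alone) and 72 higher and 194 lower in iGCB cells (301 and 478, 290 and 551, 212 and 377, and 329 and 534 in iGCB libraries alone). Without iGCB KO 2 the iGCB counts were 12 and 30, without iGCB KO 3 15 and 26, without iGCB KO 1 27 and 55, without iGCB WT 3 23 and 73, without iGCB WT 1 52 and 103, without naive WT 1 122 and 298 and without naive WT 2 152 and 337.

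Directions that turned belonged to values that had not passed the threshold, and the cause was not tested. For KO against WT in naive cells, Bbc3 was at 0.11 with library size alone, 0.0271 without a low-count filter, 0.00425 with a minimum count of 50, 0.0426 in the fit of naive libraries and 0.17 with the replicate block. Bak1 was there at 0.11 with library size alone, 0.00875 in the fit of naive libraries and 0.0248 with the replicate block. For iGCB against naive in KO cells, Bcl2l11 was at -0.0925 with RLE, -0.0891 with library size alone, -0.0926 with DESeq2, -0.0427 with a minimum count of 50 and -0.0118 in the fit of KO libraries. Bad was at -0.0366 for the difference of KO effects with library size alone.

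Over fits without 1 library, KO against WT in naive cells ranged from -0.60 to 0.48 for Bcl2l11, -0.17 to 0.25 for Bcl2l1, -0.64 to 0.42 for Mcl1, -0.0412 to 0.57 for Bid, -0.64 to 1.05 for Bbc3, -0.0248 to 0.44 for Bax, -0.49 to 0.60 for Bak1, -1.46 to 0.45 for Pmaip1 and -0.47 to 0.73 for Bad. iGCB against naive in WT cells ranged from -0.28 to 0.81 for Bcl2l11, -1.01 to 0.0506 for Mcl1 and -0.32 to 1.59 for Pmaip1, and in KO cells from -0.13 to 0.19 for Bcl2l11 and -0.29 to 0.0783 for Mcl1. The difference of KO effects ranged from -0.79 to 0.30 for Bcl2l11, -0.17 to 0.89 for Mcl1, -0.39 to 0.22 for Bid, -0.36 to 1.33 for Bbc3, -0.0367 to 0.42 for Bax, -0.44 to 0.66 for Bak1, -0.27 to 1.65 for Pmaip1 and -0.61 to 0.59 for Bad. A fit without 1 naive library leaves a lone library that is assumed to vary like the other groups.

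With 2 naive libraries a group, intervals for KO against WT in naive cells are wide (-1.81 to 0.23 for Pmaip1, -1.05 to 1.04 for Bbc3). The spread behind these intervals includes the gap between the naive replicates, which differ in sex. The least counted member, Bad, had at least 83 counts in every library.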
